A study of Mus musculus with 9 samples.

Results

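The nuclear-encoded genes of the mitochondrial respiratory chain and ATP synthase were followed in mouse CD8+ T cells from 9 RNA sequencing libraries. Members were the autosomal protein-coding genes of GENCODE M21 whose symbols begin with Ndufa, Ndufb, Ndufc, Ndufs, Ndufv, Uqcr, Cox4, Cox5, Cox6, Cox7, Cox8 or Atp5, together with Cyc1 and Cycs. This rule took 89 of the 55471 gene identifiers in the count files, of which 34 encode subunits of complex I, 8 encode complex I assembly factors (the Ndufaf genes, which share the prefix), 9 complex III, 19 complex IV, 18 complex V and 1 cytochrome c. Ndufa4 and its paralog Ndufa4l2, named for complex I, were placed with complex IV, and so was Cox7a2l, which joins complexes III and IV into supercomplexes. Atp5s, also called coupling factor B, was placed with complex V for its name only. Atp5o stands in the annotation under 2 identifiers, so the members have 88 distinct symbols.

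The respiratory chain passes electrons from NADH at complex I and from succinate at complex II to coenzyme Q, then through complex III and cytochrome c to oxygen at complex IV. Complexes I, III and IV pump protons across the inner membrane, and complex V, the ATP synthase, uses their return to make ATP. The catalytic core of complexes I, III and IV is partly encoded by mitochondrial DNA, while most subunits, among them all accessory ones, are nuclear. Activated CD8+ T cells use both glycolysis and this chain, and the oxidation of ketone bodies feeds it with NADH and acetyl-CoA.

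All cells were OT-I cells, whose transgenic receptor recognises a peptide of ovalbumin. They had been activated in culture with antibodies to CD3ε and CD28 and with IL2, transduced with an shRNA construct, sorted on the Ametrine reporter, and transferred into C57BL/6 mice that carry CD45.1. The mice were infected a day later with LmOVA, and CD45.2+ Ametrine+ cells were sorted on day 7 after infection. The control group (Bdh1-WT;shCtrl, n = 4) had intact Bdh1 and an shRNA against firefly luciferase. The DKO group (Bdh1-KO;shOxct1, n = 5) was labelled as lacking Bdh1, the beta-hydroxybutyrate dehydrogenase, and carried an shRNA against Oxct1, the enzyme that activates acetoacetate, so Oxct1 was knocked down rather than deleted. The labels do not say whether the libraries of a group came from different mice, so p-values measure the spread between these libraries, which may be technical. The comparison asks whether loss of ketone body use is accompanied by a change in the RNA of the respiratory chain.

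Libraries held 45205993 to 59853080 counts in genes. Oxct1 fell from 59.2 to 71.5 CPM (a gene's share of the counts of its library, scaled for sequencing depth) in the control libraries to 4.61 to 5.51 in the DKO libraries, and Bdh1 from 25.1 to 35.1 CPM to 8.98 to 11.6 CPM. Which exons of Bdh1 were deleted is not given in the sources used here, so the counts that remain do not test the deletion. All 6 CD8 T cell markers were expressed, with Cd8a at 663.2 to 797.5 CPM. All 6 lay below 0 in DKO against control with all libraries, and their summed level was 6049.5 to 8017.6 CPM in control and 5488.5 to 5976.1 CPM in DKO libraries, without overlap. Of them Cd8b1 fell, by 0.40 on the log2 scale (adjusted p = 0.0428 by edgeR, and 0.0189 without control replicate 1). Cd4, which marks the other main T cell lineage, stayed below 1 CPM in every library. The other CD4 T cell gene read, Cd40lg, had 14.1 to 24.2 CPM in control and 22.2 to 33.7 CPM in DKO. Its log2 fold change was 0.53 with all libraries and 0.61 without control replicate 1 (adjusted p = 0.135 and 0.0628 by edgeR). The 6 B cell markers summed to 187.7 to 268.7 CPM in control and 200.7 to 213.4 CPM in DKO. Of this Ighm made up 172.8 to 258.3 and 179.0 to 202.1 CPM. Erythroid and platelet markers summed to 6.65 to 34.5 and 10.2 to 34.7 CPM. The summed level of 6 myeloid markers was 161.7 to 195.9 CPM in control and 112.4 to 121.3 CPM in DKO libraries. The defining gene Lyz2 had 1.47 to 3.41 and 2.81 to 13.6 CPM. With all libraries 2 of the 6 lay above 0, Lyz2 at 1.27 and Csf1r at 0.37 on the log2 scale (adjusted p = 0.206 and 0.804 by edgeR). Of the 4 below 0, Ctss stood at -0.66 and Cd68 at -0.80 (adjusted p = 0.00734 and 0.0138 by edgeR). Itgam stood at -0.63, and at -0.84 without control replicate 1 (adjusted p = 0.148 and 0.00323 by edgeR). Control replicate 1 stood apart from the other libraries. It had 16.7% unmapped reads against 10.3 to 12.3% in the others, and its long transcripts were low and its short ones high, so the comparisons of the members are given with and without it. In bulk RNA, fewer cells of a type and less RNA per cell cannot be told apart.

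Of the 89 members, 81 passed the filter on low counts. The members that passed were well covered, with 27 counts or more in every library, and 28 of them averaged over 100 CPM. The 8 that did not pass were Cox4i2, Cox6a2, Cox7a1, Cox7b2, Cox8b, Cox8c, Ndufa4l2 and the second identifier of Atp5o, all under 1 CPM, and 4 of these had 0 counts in every library. To compare levels between genes, CPM was divided by the length of the principal transcript in kilobases. On this scale the median member stood at 145.9 CPM per kilobase in complex V, 147.7 in complex IV, 102.6 in complex III, 66.4 in complex I and 18.2 among the complex I assembly factors.

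The most abundant member per length was Atp5b, the catalytic beta subunit of the ATP synthase, at 518.0 CPM per kilobase over all libraries. It was followed within complex V by Atp5h at 414.6 and by Atp5a1, the alpha subunit, at 313.9. Cox6a1 led complex IV at 371.7 CPM per kilobase, in control at 355.7 and in DKO at 384.5. Cox8a came next in control at 340.1, above Cox4i1 at 278.4, but in DKO it stood at 203.2, below Cox4i1 at 261.0 and Cox6b1 at 236.4. Uqcrh, the hinge protein next to cytochrome c1, led complex III at 216.9, and Ndufb7, an accessory subunit of the membrane arm, led complex I at 208.2. Ndufaf8 led the assembly factors at 26.2 CPM per kilobase. The leading member of each complex was the same in control, in DKO and in control without replicate 1, where Atp5b stood at 471.7, Cox6a1 at 317.6, Uqcrh at 192.5, Ndufb7 at 180.4 and Ndufaf8 at 24.4. Some values may be low because of how reads were counted. For 14 of the 81 members the counts of both strands together were over 1.1 times the unstranded count. This happens where a gene overlaps another on the opposite strand, since reads in the shared stretch are left out of the unstranded count. Those reads can come from either gene, so the ratio does not measure how many reads a member lost. The ratio was 3.63 for Cox5a, 3.53 for Atp5l, 2.46 for Ndufb6 and 2.24 for Ndufb2. Reads that also map to pseudogenes were left out as well, so the levels of such genes, and of Cycs at 7.84 CPM per kilobase, are uncertain.

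**Figure D1:**
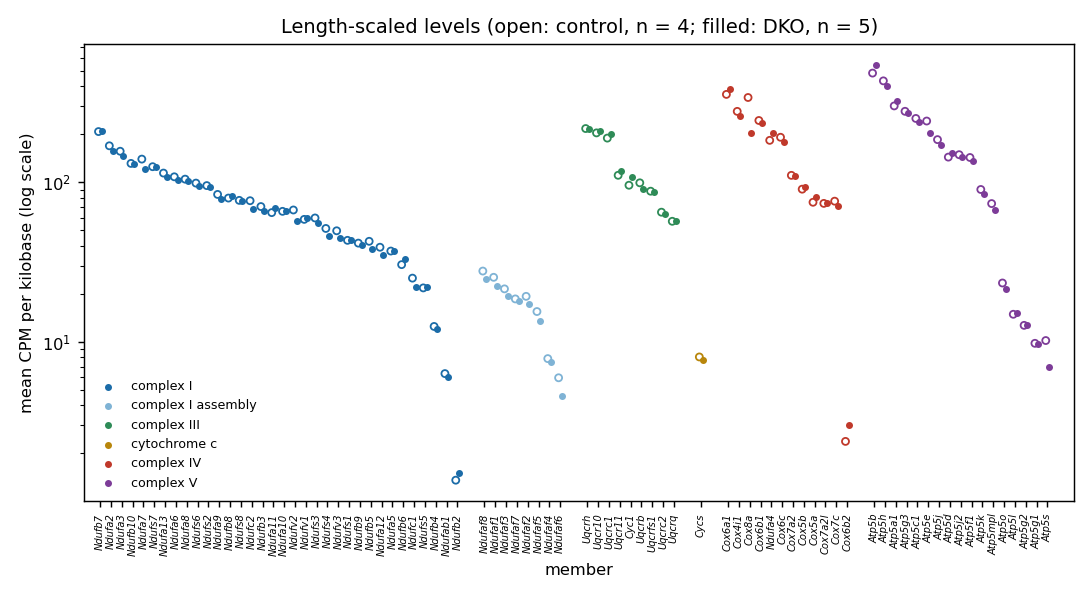
Mean CPM per kilobase of principal transcript (log axis) for each of the 81 members that passed the filter, ordered by level within its complex; open circles are control means (n = 4) and filled circles DKO means (n = 5). Cox8a shows the widest gap between open and filled circles among the abundant members, and Atp5b at 518.0 CPM per kilobase is the highest.

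Where a subunit has tissue-specific copies, the broadly expressed copy made up nearly all of the RNA. Cox4i2, the copy known from lung, had 1 count over the 4 control and 2 over the 5 DKO libraries, against 43928 and 51160 for Cox4i1. Cox6a2, the heart and muscle copy of Cox6a1, took 0.0306 to 0.117% of the length-scaled level of the pair, and the muscle copy Cox7a1 took 0.136 to 0.591% of its family. Cox8b and Cox8c had 0 counts, which allows up to 0.0145 CPM over the control and 0.0117 CPM over the DKO libraries at a floor of 3 counts, for counting error only. Cox6b2, known from testis, was the only one of these copies to pass the filter in all libraries, at 0.5 to 1.59% of the level of Cox6b1 and Cox6b2 together. The 3 genes for the c subunit of the ATP synthase rotor encode the same mature protein, and Atp5g3 took 91.7 to 93.4% of their length-scaled level, Atp5g2 3.57 to 4.86% and Atp5g1 2.94 to 3.61%. The order of the last 2 depends on the length used, which was 4715 bases for Atp5g1, 731 for Atp5g2 and 723 for Atp5g3. In counts Atp5g1 stood above Atp5g2, with 9546 against 1924 over the control and 11728 against 2383 over the DKO libraries. The ranges of these shares overlapped between control and DKO libraries.

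The members taken as a group were highest in control replicate 1. It held the highest CPM of all 9 libraries for 72 of the 81 members, or 88.9%, against 28.3% of all genes tested. The ratio of its CPM to the mean of the other control libraries had a median of 1.48 over the members, from 0.974 for Ndufs1, the largest iron-sulfur subunit of complex I, to 1.84 for Atp5o, part of the stator stalk of the ATP synthase. Summed over the members, control replicates 1 to 4 held 10690, 7987, 7420 and 8124 CPM, and DKO replicates 1 to 5 held 8322, 8185, 8107, 8980 and 8835 CPM. Thus 1 control library lay above all DKO libraries and 2 of the other controls lay below all of them, while control replicate 4 lay between DKO replicates 3 and 2. The median deviation of log2 CPM from each gene's mean over the libraries was 0.44 in control replicate 1, -0.09, -0.21 and -0.07 in the other controls, and -0.09 to 0.09 in the DKO libraries. Leaving this library out, the median SD of log2 CPM within control dropped from 0.298 to 0.101, near the 0.11 of DKO.

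**Figure D2:**
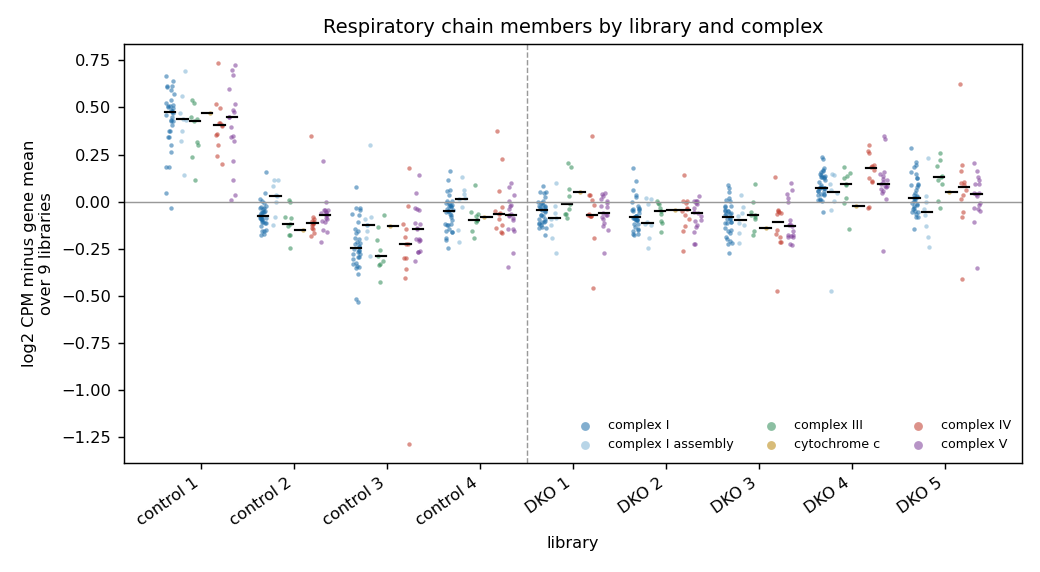
Deviation of log2 CPM from the gene's mean over the 9 libraries, for each member that passed the filter (points, coloured by complex) with the median of each complex (black bars); the dashed line separates control (n = 4) from DKO (n = 5). In control replicate 1 the medians of all complexes lie between 0.41 and 0.48, and in the other libraries none exceeds 0.18.

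The members are short. Their median principal transcript had 865 bases against 2528 for all genes tested, and 45 of the 81, or 55.6%, had at most 1000 bases against 16.7% of all genes. In control replicate 1, other genes of up to 700 bases lay 0.46 above their mean on the log2 scale and those over 5000 bases lay 0.46 below it. Members of up to 700 bases lay 0.48 above. Members of middle length lay above other genes of their length in that library. The 15 members of 1001 to 1500 bases lay at 0.435 against 0.311, and the 13 of 1501 to 2000 bases at 0.298 against 0.186. The gap was widest for the 5 members of 3001 to 5000 bases. These lay 0.32 above their mean in that library, where other genes of this length lay at -0.27. The 2451 other genes of at most 1000 bases had a median log2 fold change of -0.14 with all libraries and -0.01 without control replicate 1. Ndufs1, with a transcript of 2661 bases, had 113.0, 119.3, 112.9 and 116.0 CPM in control and 113.9, 115.3, 116.3, 116.8 and 117.0 CPM in DKO, with no library standing apart. Ndufb7, with 623 bases, had 181.2, 115.4, 98 and 123.9 CPM in control and 132.7, 121.2, 118.4, 131.6 and 145.3 CPM in DKO, with control replicate 1 above every other library. The 5 members of 3001 to 5000 bases differed in that library. Cycs, with 3123 bases, lay 0.47 above its mean there, Atp5g1, with 4715 bases, 0.45 and Ndufaf4, with 3632 bases, 0.32. Ndufb2, with 4371 bases, lay 0.18 above its mean and Ndufab1, with 3479 bases, 0.045. These lengths are those of principal transcripts, and whether the cells expressed other transcripts of these genes was not tested.

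**Figure D3:**
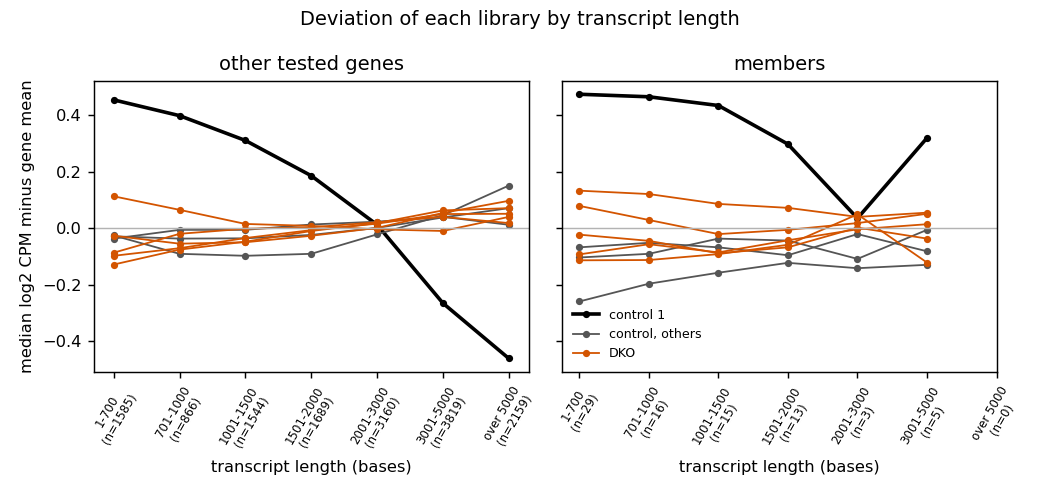
Median deviation of log2 CPM from the gene mean by bins of principal transcript length, for other tested genes (left) and the members (right); each line is a library, black for control replicate 1, grey for the other controls and orange for DKO, with the number of genes under each bin. Control replicate 1 goes from 0.46 in the shortest to -0.46 in the longest bin of the other genes, and the members lie mostly in the short bins. The 5 members of 3001 to 5000 bases stand at 0.32 in that library.

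In the comparison of DKO with control over all 9 libraries, Cox8a was the only member called, and it was lower in DKO. No member rose. Calls were made where edgeR's quasi-likelihood test over 14918 genes gave an adjusted p under 0.05, by which 2.83% of all genes tested were called, 1.32% higher and 1.51% lower in DKO. Of the 81 members, 1 had an unadjusted p under 0.05 and was higher (Atp5b) and 3 were lower (Cox8a, Atp5s and Ndufaf6), when 16.0% of all genes tested were under that p, 7.74% higher and 8.25% lower. Log2 fold changes were above 0 for 22 members and below 0 for 59, with a median of -0.05 against -0.01 for all genes tested. By complex the medians were -0.05 for complex I, -0.16 for its assembly factors, 0.01 for complex III, -0.00 for complex IV and -0.07 for complex V, and the single value for Cycs, the soluble electron carrier between complexes III and IV, was -0.07.

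The signs of the members turned when control replicate 1 was left out. Then 68 of the 83 members that passed the filter lay above 0 and 15 below, with a median log2 fold change of 0.09, a DKO level 6.29% above control, while the median of all genes tested was -0.01. Of the members, 46 were below 0 with all libraries and above 0 without this library, 21 were above 0 in both fits, 13 below 0 in both, and 1 went the other way. The medians were 0.10 for complex I, -0.03 for its assembly factors, 0.19 for complex III, 0.14 for complex IV and 0.07 for complex V, and Cycs stood at 0.09. All 9 members of complex III were above 0. Past the threshold were 1 higher member, Atp5b, and 2 lower ones, Cox8a and Atp5s, when 4.93% of 15185 genes were called, 2.12% higher and 2.81% lower. With an unadjusted p under 0.05 there were 16 higher and 2 lower members, when 20.0% of all genes tested were under that p, 9.17% higher and 10.8% lower. The median of the members stayed between 0.06 and 0.12 when each further library was left out in turn. Within these 8 libraries DKO replicate 4 was the highest for 44 and DKO replicate 5 for 21 of 81 members, and control replicate 3 the lowest for 52, against 13.8, 14.4 and 21.7% of all genes tested. The medians are given as a description, without a test.

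**Figure D4:**
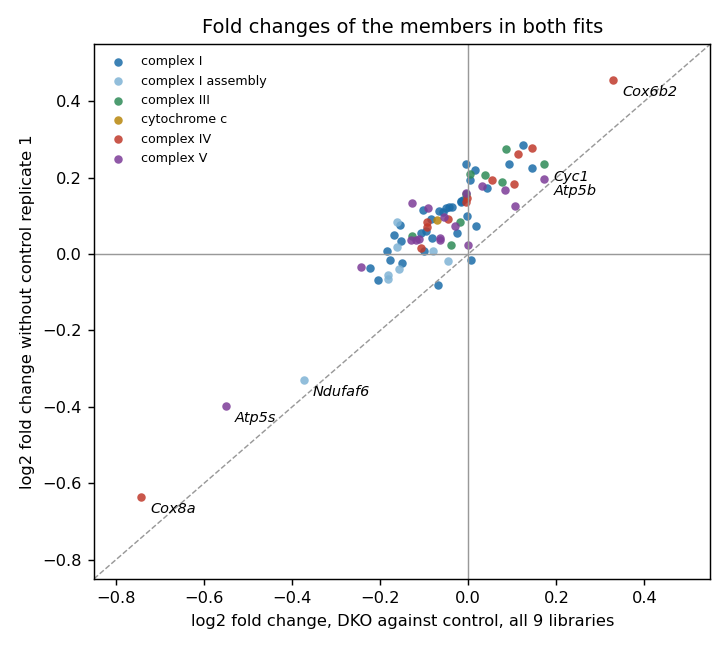
Log2 fold change of DKO against control for each member, with all 9 libraries (horizontal axis) and without control replicate 1 (vertical axis), coloured by complex; the dashed line marks equal values. Nearly all points lie above the dashed line, and Cox8a at -0.74 and -0.64 and Atp5s at -0.55 and -0.40 lie apart from the rest.

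A further fit kept all libraries and removed each library's trend on transcript length. Its median for the members was 0.03, with 54 above and 27 below 0. In this fit 2 members were past the threshold and higher, Atp5b and Ndufa4, for which edgeR gave adjusted p of 0.038 and 0.0404. The lower members past the threshold were Cox8a with 0.000718 and Atp5s with 0.0243, and 4.99% of all genes were called, 2.45% higher and 2.54% lower. With an unadjusted p under 0.05 there were 13 higher and 2 lower members, against 19.6% of all genes tested, 9.73% higher and 9.85% lower. Here 8 of the 9 members of complex III and 11 of the 12 of complex IV lay above 0, and all 8 complex I assembly factors lay below 0, with medians of 0.13, 0.11 and -0.09. With both steps, the length trend removed and control replicate 1 left out, Cox6a1 joined Atp5b and Ndufa4 among the higher members, when 5.76% of all genes were called. Among other tests, limma-voom on all libraries called Atp5b higher and Cox8a and Atp5s lower, and 6.68% of all genes. The DESeq2 Wald test on all libraries called Cox8a and Atp5s lower and 8.41% of all genes. Without control replicate 1 the DESeq2 Wald test called 13.3% of all genes, and among them 7 higher members, Atp5b, Ndufa11, Cyc1, Ndufa5, Cox6a1, Uqcr11 and Ndufa4, and the same 2 lower ones.

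Cox8a encodes the smallest nuclear subunit of cytochrome c oxidase, a single helix in its membrane part, and is the broadly expressed copy. Its gene lies on the minus strand at chr19:7215153-7217616 (GRCm38). Cox8a had 232.2, 177.4, 157.9 and 180.8 CPM in control replicates 1 to 4. In DKO replicates 1 to 5 it had 101.5, 116.1, 100.3, 136.2 and 104.7 CPM. Every DKO library lay below every control library, the closest being DKO replicate 4 and control replicate 3. The fall was 40.3%, or -0.74 on the log2 scale with an SE of 0.125, and edgeR's quasi-likelihood test gave it an adjusted p of 0.0115. Without control replicate 1 it was -0.64 with an SE of 0.0973, and the adjusted p by edgeR was 0.00497. Groups that do not overlap with DKO lower were seen for 2 members, Cox8a and Atp5s, and for 4.09% of all genes tested.

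No other subunit of complex IV passed the threshold in either the fit of 9 or that of 8 libraries. Cox8a equalled 16.6, 18.3, 17.8 and 18.2% of the summed CPM of 9 other complex IV subunits in control replicates 1 to 4, and 9.87, 11.3, 10.5, 11.3 and 9.42% in DKO replicates 1 to 5. In this share control replicate 1 lay close to the other controls, which its CPM did not. Those 9 subunits were all other tested members of the complex except Cox7a2l and Cox6b2. Their summed CPM was 885.7 to 1396.0 in control and 954.9 to 1206.2 in DKO libraries, so that the groups overlapped. The paralogs Cox8b and Cox8c had 0 counts in both groups. The sums of the CD8 T cell and of the myeloid markers were also lower in every DKO library than in every control. Of the 6 myeloid markers, 2 lay above 0 and 4 below with all libraries. The part of these markers in the Cox8a result was not tested.

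Promoter windows of RefSeq (GRCm38.p6), 300 bases from 250 before to 50 after the gene start, were found for 71 of the 89 members. Matching used the Entrez gene identifier, or the symbol where that gave none, and kept only windows near the gene. They were searched on both strands for cores of factors known to drive respiratory genes: NRF1 (GCGCANGCGC), the ETS family that includes GABP, also named NRF-2 (CCGGAAG), and YY1 (AANATGG). The NRF1 core was in 17 windows (23.9%, against 5.19% of all 27025 genes of the table and 11.7% of the 9784 of them tested here). The ETS core was in 16 (22.5%, against 9.93 and 21.1%), and the YY1 core in 20 (28.2%, against 18.2 and 18%). The windows of the members that passed the threshold in either fit are shown with that of Cox6a1, the complex IV subunit with the highest level, with motif letters in capitals. Cox8a (chr19:7217567-7217866, minus strand) held 2 copies of the ETS core and neither of the others. Cox6a1 (chr5:115348909-115349208, minus strand) held 2 NRF1 cores and 1 ETS core. Atp5b (chr10:128083057-128083356, plus strand) held 1 YY1 core and Atp5s (chr12:69724695-69724994, plus strand) none. A match describes letters in this window only.
Cox8a: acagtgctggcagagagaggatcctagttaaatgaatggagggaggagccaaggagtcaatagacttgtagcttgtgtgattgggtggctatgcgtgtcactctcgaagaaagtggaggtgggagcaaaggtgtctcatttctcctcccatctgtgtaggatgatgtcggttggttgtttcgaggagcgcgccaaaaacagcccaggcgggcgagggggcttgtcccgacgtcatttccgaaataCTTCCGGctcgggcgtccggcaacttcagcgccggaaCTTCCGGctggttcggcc
Cox6a1: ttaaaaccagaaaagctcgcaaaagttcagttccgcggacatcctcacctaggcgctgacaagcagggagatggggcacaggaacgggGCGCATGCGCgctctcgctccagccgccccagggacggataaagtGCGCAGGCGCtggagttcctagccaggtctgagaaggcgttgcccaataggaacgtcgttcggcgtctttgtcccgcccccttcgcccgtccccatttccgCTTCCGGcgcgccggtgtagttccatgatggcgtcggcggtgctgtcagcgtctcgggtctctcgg
Atp5b: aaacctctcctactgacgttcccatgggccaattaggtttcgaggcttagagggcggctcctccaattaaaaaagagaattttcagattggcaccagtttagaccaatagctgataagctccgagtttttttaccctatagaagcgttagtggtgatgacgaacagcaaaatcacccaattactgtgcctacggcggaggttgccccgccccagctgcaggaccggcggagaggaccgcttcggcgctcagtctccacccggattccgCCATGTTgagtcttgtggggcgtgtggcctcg
Atp5s: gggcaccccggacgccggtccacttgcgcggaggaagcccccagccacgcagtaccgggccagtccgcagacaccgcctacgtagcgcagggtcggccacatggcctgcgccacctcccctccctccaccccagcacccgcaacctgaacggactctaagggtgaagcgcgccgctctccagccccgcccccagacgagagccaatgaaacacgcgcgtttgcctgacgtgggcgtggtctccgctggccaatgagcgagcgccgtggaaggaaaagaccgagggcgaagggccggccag

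The 2 other members named by the threshold were placed with complex V, Atp5s for its name only. Atp5s encodes a soluble factor that is not part of the ATP synthase core. Atp5s had 21.6, 15.2, 14.4 and 14 CPM in control and 11.8, 11.2, 11.5, 10.9 and 10.3 CPM in DKO, and the groups did not overlap. The log2 fold change was -0.55 (SE 0.139) and edgeR gave 0.0619 as its adjusted p, and without control replicate 1 these were -0.40 (SE 0.0972) and 0.0406. In the fit of 8 libraries the call was lost when any single further library was left out, with adjusted p up to 0.125 in the same edgeR test.

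Atp5b had 995.3, 929.4, 893.4 and 888.7 CPM in control and 1022.8, 1010.6, 1034.0, 1049.6 and 1108.5 CPM in DKO. All DKO libraries lay above all controls, control replicate 1 included, which holds for 4.62% of all genes tested. On the log2 scale edgeR put it at 0.17 with all libraries (SE 0.0663, adjusted p = 0.224) and at 0.20 without control replicate 1 (SE 0.0491, adjusted p = 0.0441). This is a level 14.6% above control in the second fit. Leaving out any 1 further library other than DKO replicate 2 ended this call, with adjusted p up to 0.115 in the edgeR test.

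Of the partners of Atp5b in the catalytic head, Atp5a1 had 793.8, 717.5, 702.1 and 763.3 CPM in control and 775.5, 776.5, 828.1, 799.4 and 825.1 CPM in DKO. Its control replicate 1 lay within the DKO range and its other controls below it, and its log2 fold change was 0.11 with all libraries and 0.13 (adjusted p = 0.193 in edgeR's quasi-likelihood test) without that library. The gamma subunit Atp5c1 stood at -0.07 and 0.04 in the same fits, the delta subunit Atp5d at 0.08 and 0.17, and the epsilon subunit Atp5e at -0.24 and -0.03. The c subunit genes Atp5g1, Atp5g2 and Atp5g3 had log2 fold changes of -0.01, -0.00 and -0.03 with all libraries and 0.16, 0.02 and 0.07 without control replicate 1. Atp5k, subunit e of the membrane part, had -0.09 and 0.12. None of these passed the threshold in either fit.

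**Figure D5:**
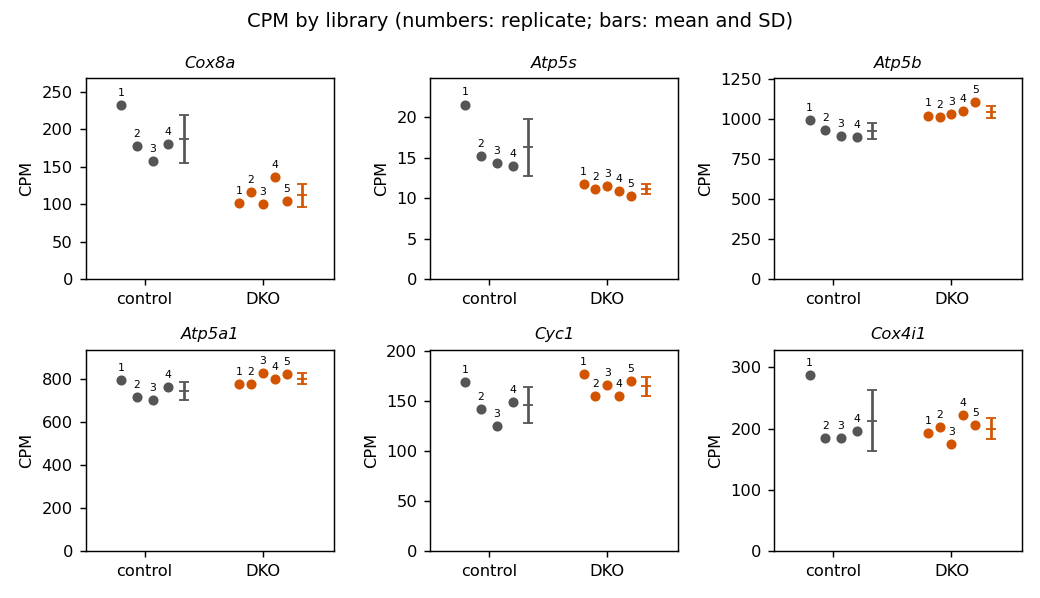
CPM by library for 6 members, with control (grey, n = 4) and DKO (orange, n = 5), the replicate number above each point, and the mean and SD beside the points. Cox8a and Atp5s show DKO libraries below all controls and Atp5b above all controls, while Atp5a1 and Cyc1 overlap only through control replicate 1, and Cox4i1 overlaps also without it.

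Complex III had the highest median of the complexes in the fit of 8 libraries. Cyc1, the cytochrome c1 that hands electrons to cytochrome c, had 168.3, 142.0, 124.5 and 148.2 CPM in control and 176.4, 154.4, 165.7, 154.7 and 169.8 CPM in DKO. Control replicate 1 lay among the DKO libraries and the other controls below all of them. On the log2 scale edgeR put Cyc1 at 0.17 with all libraries (SE 0.0929, adjusted p = 0.399) and at 0.24 without control replicate 1 (SE 0.0715, adjusted p = 0.086), so it did not pass the threshold in either fit. The Rieske protein Uqcrfs1 stood at -0.02 and 0.09 on the log2 scale, and the core proteins Uqcrc1 and Uqcrc2 at 0.08 and 0.19 and at -0.04 and 0.03. Uqcrh had 159.7, 103.9, 102.1 and 109.9 CPM in control and 112.5, 116.5, 112.0, 133.7 and 117.8 CPM in DKO. Without control replicate 1 its groups did not overlap, but its adjusted p was 0.222 in edgeR's quasi-likelihood test. Uqcrb, which helps to form the quinone site, had the lowest value of the complex with all libraries, -0.13, and stood at 0.05 without control replicate 1.

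In complex IV apart from Cox8a, Cox6a1 and Ndufa4 had the largest fold changes of the abundant subunits in the fit of 8 libraries. Ndufa4, a subunit that stabilises the complex, had 144.3, 103.4, 95.3 and 104.3 CPM in control and 120.0, 117.3, 105.7, 141.4 and 134.0 CPM in DKO. Its log2 fold change was 0.15 with all libraries and 0.28 without control replicate 1, and edgeR gave adjusted p of 0.634 and 0.1. Cox6a1 had 268.5, 192.8, 158.3 and 192.9 CPM in control and 215.0, 205.0, 202.0, 250.9 and 224.9 CPM in DKO. Its log2 fold change was 0.11 and 0.26, with adjusted p of 0.734 and 0.113 in the same edgeR test. For both genes the controls other than replicate 1 lay below all DKO libraries. Cox4i1, Cox5a and Cox5b, which bind regulators of the enzyme, stood at -0.09, 0.10 and 0.06 on the log2 scale with all libraries and at 0.07, 0.18 and 0.19 without control replicate 1. Cox7a2 stood at -0.01 and 0.14 and Cox7a2l at -0.00 and 0.15. Cox6b2 had the largest positive value of all members, 0.33 with all libraries (SE 0.312) and 0.46 without control replicate 1 (SE 0.329), at a level of 0.597 to 2.35 CPM.

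Complex I, the NADH dehydrogenase, had no member past the threshold in either fit. Its fold changes with all libraries ran from -0.22 for Ndufv2, an iron-sulfur subunit of the NADH-binding arm, to 0.14 for Ndufb2. Without control replicate 1 they ran from -0.08 for Ndufab1, the mitochondrial acyl carrier protein, to 0.28 for Ndufb6. Of the other core subunits of the NADH-binding arm, Ndufs1 stood at 0.01 with all libraries and -0.01 without control replicate 1, and the flavin-binding Ndufv1 at 0.02 and 0.07. Ndufv2 had 158.0 CPM in control replicate 1, 95.0 to 101.5 CPM in the other controls and 90.6 to 104.1 CPM in DKO, so that only 1 library stood apart, and its value without that library was -0.04. Ndufb2, at 4.36 to 7.15 CPM, changed the sign of its value to -0.14 when the counts of both strands were summed, and neither value passed the threshold.

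Among the 8 libraries other than control replicate 1, control and DKO did not overlap for 11 members that were higher in DKO, against 7.63% of all genes tested, and for 2 that were lower, against 6.69%. The higher ones were Ndufa11, Ndufa5 and Ndufb8 of complex I, Cyc1, Uqcr11 and Uqcrh of complex III, Cox6a1, Cox7a2l and Ndufa4 of complex IV, and Atp5a1 and Atp5b of complex V. Ndufa11, Ndufa5, Ndufb8 and Uqcr11 are named here after their values were seen. The lower ones were again Cox8a and Atp5s.

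The 8 Ndufaf genes, assembly factors that help to build complex I and are not part of it, had lower medians than its subunits in both fits. With all libraries all 8 lay below 0, and without control replicate 1, 5 lay below and 3 above. Ndufaf6 had the lowest value of them. It had 7.18, 5.99, 6.84 and 5.79 CPM in control and 4.57, 5.1, 4.75, 3.98 and 6.5 CPM in DKO, with DKO replicate 5 inside the control range. Its log2 fold change was -0.37 (adjusted p = 0.286) and without control replicate 1 -0.33 (adjusted p = 0.312) in edgeR's quasi-likelihood test. Ndufaf7, a methyltransferase that acts on a complex I subunit, stood at -0.05 and -0.02, and Ndufaf8 at -0.16 and 0.02. No test compared the assembly factors with the subunits.

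Other genes of the pathway that are no members were read from the same fits. None of the 4 complex II subunits passed the threshold, and their medians were -0.07 with all libraries and 0.03 without control replicate 1. The 3 X-linked subunits Ndufa1, Ndufb11 and Cox7b, which the autosomal rule leaves out, had a median of -0.03 and 0.15, with none past the threshold. Of the 13 subunits encoded by mitochondrial DNA, 8 were counted well enough to be tested. With all libraries 7 of these lay below 0 with a median of -0.22, and without control replicate 1 all 8 lay below 0 with a median of -0.15, but none passed the threshold. Their summed level was 1996.5 to 2696.4 CPM in control and 1482.6 to 2537.3 CPM in DKO libraries. mt-Co1, the catalytic subunit of complex IV, had 990.3, 862.8, 1155.9 and 871.0 CPM in control and 560.2, 1013.7, 664.1, 961.7 and 592.5 CPM in DKO. DKO replicates 2 and 4 were in the control range and the other 3 below it.

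No assembly factor of complexes II to V passed the threshold in the fits of 9 and 8 libraries, out of 4, 6, 18 and 4 tested. Among 8 further complex I assembly factors none passed in these fits. Their median was -0.01 with all libraries, above that of the complex I subunits, with 4 above and 4 below 0. Without control replicate 1 it was -0.04, with 3 above and 5 below 0. Of 11 genes of coenzyme Q synthesis, none passed with all libraries. Coq8a, an atypical kinase needed for coenzyme Q synthesis, passed without control replicate 1. It had 22.3, 23, 22 and 21.9 CPM in control and 17.9, 16.5, 18.6, 18.6 and 17.1 CPM in DKO, with no overlap, and its log2 fold change was -0.33 (adjusted p = 0.0703) with all libraries and -0.34 (adjusted p = 0.0399) without that library in edgeR's quasi-likelihood test. Of 11 regulators of mitochondrial biogenesis, 10 were tested and none passed. Ppargc1a, which codes for the coactivator PGC-1 alpha, had 0 counts in all 4 control libraries and in 3 of the 5 DKO libraries. Esrra, a nuclear receptor that works with that coactivator, had 31.3 to 32.7 CPM in control and 36.1 to 38 CPM in DKO, 0.21 higher on the log2 scale with all libraries and 0.19 without control replicate 1, for which edgeR gave adjusted p of 0.17 and 0.116.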

How the data were processed

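Per the labels' protocols, the input was polyA RNA from a Qiagen RNeasy kit, and library preparation used Takara SMART-Seq v4 followed by Nextera Flex. For each library the authors deposited raw counts of reads by gene, in the layout of STAR gene counts; STAR 2.7.8a, Trim Galore 0.6.0 and mm10 are named per the submitters' processing notes. The unstranded count was used, since both strand columns were nearly equal. Lines that name no gene stayed out of library sizes (unmapped reads 10.3 to 16.7%, multimapping 5.8 to 6.79%, no feature 4.01 to 5.2%, ambiguous 4.97 to 5.31%). Of 55471 identifiers, 55230 matched GENCODE M21 without version.

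The test was that of edgeR 4.0.16 under R 4.3.3 (quasi-likelihood, robust, TMM, filterByExpr with a minimum count of 10 and total of 15), with Benjamini-Hochberg adjustment over all tested genes at 0.05, and tested on simulated data. CPM uses TMM library sizes, log2 CPM a prior count of 2, and length that of the APPRIS principal transcript, chosen after the data were seen. Alternatives were DESeq2 1.42.0 size factors or Wald test, limma-voom (3.58.1), no or a stricter filter (1 CPM in 4 libraries), summed strands, a replicate block, a lowess length trend (span 0.3) and leaving out each library. Their repeats on the 8 libraries other than control replicate 1 were added after seeing the data. Named genes were members past the threshold in either fit, the highest level and the extreme fold changes of each complex, and a set of core subunits. Members and lists were chosen with earlier results of these data known. A comparison of paralog protein sequences was not used here.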

Additional observations from a re-analysis of the deposited data

Results flagged for a closer look

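In 76 groups of 4 or 5 libraries checked, 11 had a highest or lowest library separated from the others by more than the Dixon limit, where chance gives about 1 in 20. Control replicate 1 was the highest library in 10 of them. These were Atp5s at 21.6 CPM, Ndufv2 at 158.0 CPM, Ndufaf8 at 29.9 CPM, Uqcrh at 159.7 CPM, Cycs at 33.6 CPM, Uqcrfs1 at 147.8 CPM, Cox4i1 at 286.8 CPM, Cox7a2l at 104.5 CPM, Atp5g3 at 247.9 CPM and the median deviation of complex V, 0.45 on the log2 scale. The remaining group was Uqcrh in DKO, where replicate 4 had 133.7 CPM.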

How the results depend on the processing

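With all libraries, 0 members were higher and 1 lower past the threshold. Higher members numbered 1 with limma-voom (6.68% of all genes called), 2 with the length trend removed and 1 without control replicate 1. Lower members numbered 2 with the DESeq2 Wald test (8.41% called), limma-voom, the stricter filter, the length trend removed, or without control replicate 1. Over the fits that leave out 1 library, higher members ranged from 0 to 1 and lower members from 1 to 2. Without control replicate 1 there were 1 higher and 2 lower members. Higher members numbered 7 with the DESeq2 Wald test (13.3% called), 3 with the length trend also removed (5.76% called) and 0 without a filter, which left 1 lower member. Leaving out a further library gave 0 to 1 higher and 1 lower. The cause of these shifts was not tested. The median of all members turned to 0.04 with limma-voom, which weights libraries by quality. Cox8a was past the threshold in all 15 alternatives other than the block, with adjusted p from 4.59e-06 to 0.0397, and in all 15 without control replicate 1.

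The labels give both groups replicate numbers 1 to 4 and do not say whether these mark pairs. Same-numbered libraries did not deviate together (correlations of -0.047, -0.009, 0.012 and -0.117), and no library of replicates 1 to 4 correlated best with its own number. These correlations cannot show whether same-numbered libraries shared a mouse or a preparation, so a pairing is not excluded. The replicate block kept only numbers present in both groups. It left out DKO replicate 5, and in the fit without control replicate 1 also DKO replicate 1. With the block 0 members were called lower and 0 higher in both settings. Calls over all genes dropped from 422 in the fit of 9 libraries to 63, and from 749 in that of 8 libraries to 52. Cox8a then had log2 fold changes of -0.72 and -0.57 and edgeR gave adjusted p of 0.0834 and 0.0506.

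Counts of 27 or more per library mean that depth limits few of the members that passed. Strand overlap also limits the levels of single genes, and so may multimapping, which was not measured by gene. The groups hold 4 and 5 libraries, and without control replicate 1 only 3 controls remain.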

Other observations

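Among the neighbours of Cox8a on chromosome 19, Macrod1, a mitochondrial ADP-ribosylhydrolase (7056810 to 7198057), had 5.82, 5.08, 7.1 and 7.12 CPM in control and 4.07, 3.03, 4.18, 3.68 and 3.64 CPM in DKO, and fell by 0.76 on the log2 scale (adjusted p = 0.0318 in edgeR's quasi-likelihood test, and 0.0208 without control replicate 1). Otub1, which lies between both genes, and Naa40, on the other side of Cox8a, had log2 fold changes of 0.06 and 0.16 with adjusted p of 0.781 and 0.53 in the same edgeR test, and of 0.04 and 0.05 without control replicate 1. These genes were looked at after the fall of Cox8a was seen.

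With the length trend removed, Dmac1, a complex I assembly factor, was the only gene of the lists of other assembly factors past the threshold. It had 57.1, 42.9, 39 and 42.7 CPM in control and 48.4, 48.3, 48.5, 54 and 48.1 CPM in DKO, and edgeR gave an adjusted p of 0.0749 without control replicate 1.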
